A study of Mus musculus with 16 samples.

Results

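The genes described here are the ribosomal protein genes of the mouse, taken as every protein-coding gene whose symbol starts with *Rps*, *Rpl* or *Rplp* followed by the number of a ribosomal protein, or is *Rpsa*, so that ribosomal S6 kinases, mitochondrial ribosomal proteins and pseudogenes were left out. The rule took 84 genes of the GENCODE annotation, of which 66 had at least 1 listed RNA–DNA pair, among 10736 listed protein-coding genes. RADIP ligates RNA to nearby chromatin DNA in fixed nuclei by way of a bridge adaptor, after which an antibody pulls down the chimeras, here one against trimethylated lysine 27 of histone H3 (H3K27me3), a mark that Polycomb repressive complex 2 places on silenced genes. Input was made from a part of the same lysate that was kept aside without the antibody step. Both conditions came from PGK12.1 mouse embryonic stem cells (mESCs) crosslinked in 1% formaldehyde, and the labels give no other treatment or allele. The 8 libraries labelled per condition, made from 4 biological replicates, were merged by the authors, so each condition is 1 list of pairs that passed their limit (1305107 pairs in Input and 1415135 in H3K27me3-RADIP) and no error between replicates could be computed. All intervals below are 95% intervals and cover counting error only, and every comparison is between the merged libraries, not between replicated conditions. The stem cell label was checked on 15 marker genes, of which 7 were listed in Input and 9 in H3K27me3-RADIP, with *Esrrb* and *Zfp42* in both and *Pou5f1* and *Nanog* in neither. Of 10 fibroblast markers, 1 was listed in each library.

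Ribosomal proteins join ribosomal RNA to build the small and the large subunit of the cytoplasmic ribosome. Their genes are transcribed at high rates in dividing cells, are short, start at pyrimidine-rich sites and often carry small nucleolar RNAs in their introns. Mammalian genomes also hold very many processed pseudogenes of these genes, copies of the spliced messenger RNA that were inserted elsewhere, so that the coding sequence of a ribosomal protein gene is rarely found in 1 place only while its introns usually are.

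The authors kept only uniquely mapped tags, and the coding windows of 27 bases shown first are among those with the most copies in the genome. The windows are from the GRCm38 (mm10) reference, read 5′ to 3′ on the strand of the gene. *Rpl7a*, *Rpl21* and *Rpl29* encode proteins of the large subunit, and so does *Rpl23a*, whose protein sits at the exit of the peptide tunnel. These 4 are examples chosen after the values were seen. Windows with more copies than that of *Rpl23a* also exist in *Rps3* (13820 copies), *Rps19* (13606), *Rps2* (58) and *Rpl17* (47) and are not shown. Whether the copies of a window are pseudogenes or other repeated sequence was not tested.
*Rpl7a* (chr2:26912385-26912411, plus strand, coding sequence, 85 copies): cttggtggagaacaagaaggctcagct
*Rpl21* (chr5:146834477-146834503, plus strand, coding sequence, 71 copies): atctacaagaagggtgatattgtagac
*Rpl29* (chr9:106431117-106431143, plus strand, coding sequence, 71 copies): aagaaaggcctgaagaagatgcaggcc
*Rpl23a* (chr11:78181490-78181516, minus strand, coding sequence, 32 copies): ttgtgttcattgtggatgtcaaggcca

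A small share of the tags crossed the edge of an exon and so lay partly in an intron. The next lines give positions of RNA tags listed in both libraries, with exon letters of the annotated coding transcripts in capitals and intron letters in lower case, again from the GRCm38 reference and on the strand of the gene. The first 5 run from an exon into the next intron and the last 2 from an intron into the next exon.
*Rpsa* (chr9:120130893-120130917, plus strand): GGAGgtaaggctttctctagtatat
*Rpl22* (chr4:152327574-152327598, plus strand): GCTGCCAATTTTgtaagtgacattc
*Rpl36* (chr17:56614026-56614050, plus strand): GTTCATCAAGAAGAGGgtaggcagc
*Rpl38* (chr11:114671849-114671873, plus strand): ACCCCCGGgtgagtacgcctgaggg
*Rps3* (chr7:99482248-99482272, minus strand): GGCAGCGTAGAGgtgagttcctctg
*Rplp2* (chr7:141448705-141448729, plus strand): agctgtggttgtctaccccagGTCA
*Rps3* (chr7:99482350-99482374, minus strand): gttgcgcttcccctctacagGACAC
In each of these 7 the intron began with gt or ended with ag, the letters that mark a splice site. The tables give positions, not read letters, so whether a tag matched all of these letters was not tested.

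Ribosomal protein genes gave 1973 pairs in Input and 1789 in H3K27me3-RADIP. Their share was 0.151% in the Input table (interval 0.145 to 0.158) and 0.126% in the H3K27me3-RADIP table (0.121 to 0.132), so that the share differed by -0.025 percentage points (-0.034 to -0.016). Pairs were listed for 64 members in Input and for 57 in H3K27me3-RADIP, and 55 members were listed in both. The tables hold only combinations of an RNA and a 25-kb bin that passed the authors' limit on the adjusted *P*-value, and the smallest combination of a member held 7 Input pairs or 8 H3K27me3-RADIP pairs, so a member that is not listed may have had fewer pairs than that.

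The pairs were unevenly spread over the members. *Rps19*, which encodes a small subunit protein whose loss causes Diamond–Blackfan anaemia in humans, had 217 Input pairs and 271 H3K27me3-RADIP pairs. *Rps15a*, a small subunit gene, had 229 and 200. Together these 2 genes of chromosome 7 held 22.6% of the members' pairs in Input and 26.3% in H3K27me3-RADIP, and the median listed member had 19 and 17 pairs. The other 8 of the 10 members with the most pairs were *Rpl3*, whose protein lies next to the peptidyl transferase centre (66 in Input and 64 in H3K27me3-RADIP), *Rpl38*, needed for translation of a set of *Hox* messenger RNAs (58 and 61), *Rps3*, part of the entry channel for messenger RNA (57 and 61), *Rps7* (69 and 48), *Rps14* (43 and 65), *Rpl22* (37 and 68), *Rps24* (53 and 50) and *Rpl26* (57 and 39). The 10 together held 44.9% of the members' Input pairs and 51.8% of their H3K27me3-RADIP pairs. The other 56 members had at most 47 pairs in Input and 50 in H3K27me3-RADIP.

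**Figure D1:**
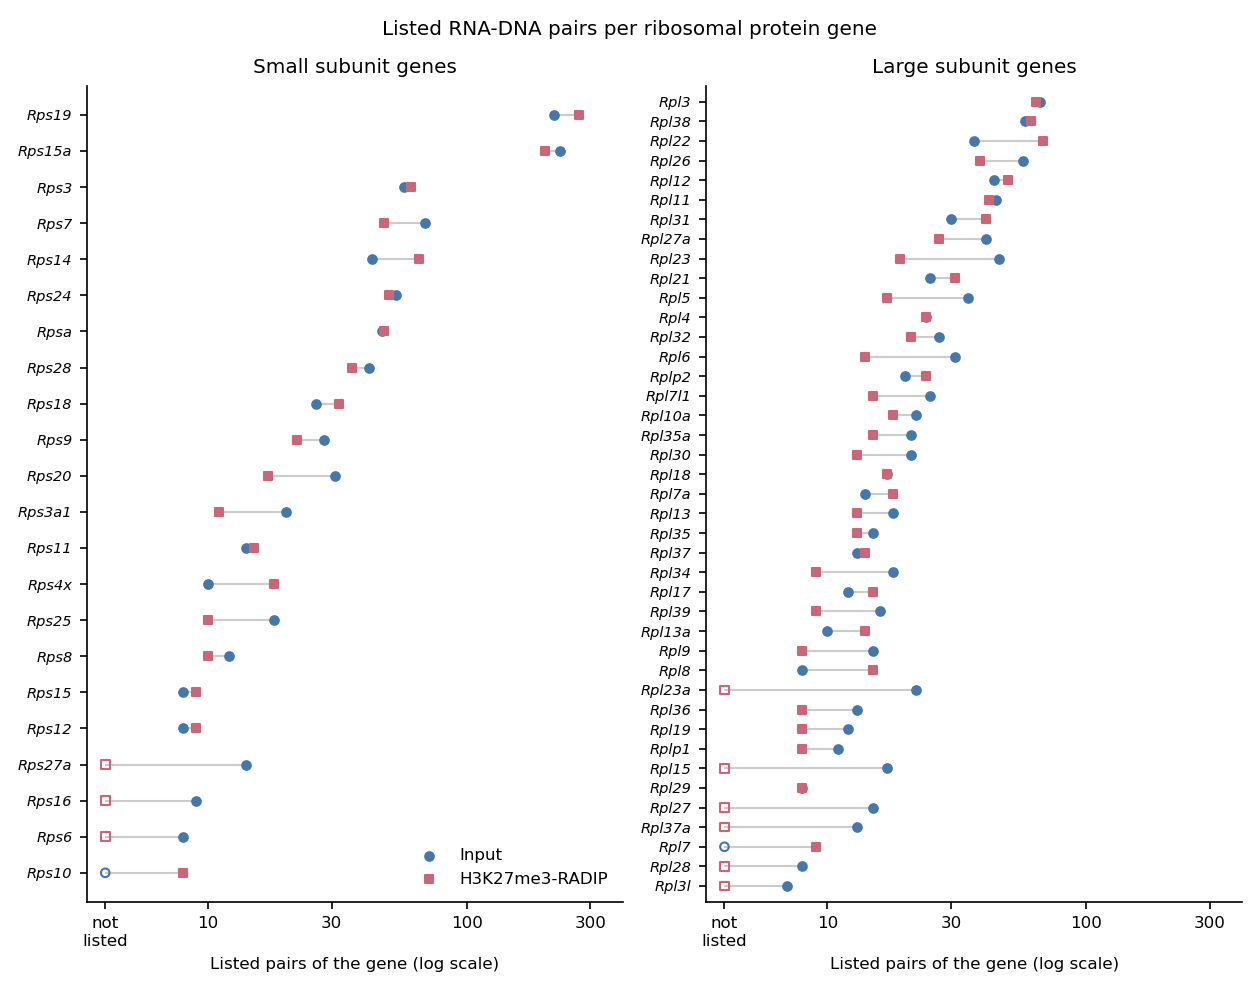
Listed RNA–DNA pairs of 63 of the 66 listed ribosomal protein genes (log scale), small subunit genes on the left and large subunit genes on the right, with circles for Input and squares for H3K27me3-RADIP, joined by a line. Open symbols mark a gene with no listed pair in that library, and *Rps19* and *Rps15a* stand alone at 200 to 271 pairs.

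Members listed in 1 library only had 7 to 22 pairs. The 9 listed only in Input were *Rpl23a* with 22 pairs, *Rpl15* with 17, *Rpl27* with 15, *Rps27a*, which encodes a fusion of ubiquitin and a small subunit protein, with 14, *Rpl37a* with 13, *Rps16* with 9, *Rpl28* and *Rps6*, the target of the S6 kinases, with 8 each, and *Rpl3l*, the muscle paralogue of *Rpl3*, with 7. The 2 listed only in H3K27me3-RADIP were *Rpl7* with 9 pairs and *Rps10* with 8. These were 13.6% and 3.03% of the 66 listed members, and of all 10736 listed protein-coding genes 10.5% had pairs in Input alone and 13.5% in H3K27me3-RADIP alone.

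In neither library were 18 annotated members listed, 8 of the small subunit (*Rps2*, *Rps13*, *Rps21*, *Rps23*, *Rps26*, *Rps27*, *Rps27l* and *Rps29*) and 10 of the large subunit (*Rpl10*, *Rpl10l*, *Rpl14*, *Rpl22l1*, *Rpl24*, *Rpl36a*, *Rpl36al*, *Rpl39l*, *Rpl41* and *Rplp0*). Their median gene length was 2269 bp, against 3760 bp for the 66 listed members, which ran from 828 bp (*Rpl36*) to 31449 bp (*Rps14*). Inside the body of *Rpl24* the tables held 24 pairs in Input and 11 in H3K27me3-RADIP under the name of an overlapping gene, *Gm28037*, and reads of the 2 genes cannot be told apart. No pair of another name lay inside the other unlisted members. The annotation holds 300 genes named as pseudogenes of ribosomal proteins, and 0 of them had a listed pair in either library.

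Counts per member were then compared between the libraries for the 55 shared members, after scaling by the trimmed mean of M-values (TMM) over the 8158 protein-coding genes listed in both. A log2 ratio of at least 0.5 in size was taken as a difference, with no test. More members were lower than higher in H3K27me3-RADIP: 19 (34.5%) were at or below -0.5 and 5 (9.09%) at or above 0.5, where 21.9% and 20.2% of all shared protein-coding genes were. With a limit of 0.01 on the adjusted *P*-value of the pairs, 13 members were lower and 3 higher. The median log2 ratio was -0.13 for the members and -0.01 for all shared protein-coding genes. By subunit, 5 of 20 shared small subunit genes and 14 of 35 large subunit genes were lower, and 2 and 3 were higher. The pairs of a library come from many cells together, so within either library the number of cells with an RNA and its amount per cell cannot be told apart.

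Among the lower members, the interval of the log2 ratio lay below 0 for *Rpl23*, *Rpl5* and *Rpl6* by a clear margin. *Rpl23*, whose protein also binds Mdm2, went from 46 Input pairs to 19 with H3K27me3-RADIP (log2 ratio -1.31, interval -2.16 to -0.51). *Rpl6* had 31 and 14 (-1.18, -2.20 to -0.23). *Rpl5*, which joins *Rpl11* and 5S ribosomal RNA in a particle that restrains Mdm2, had 35 and 17 (-1.07, -2.00 to -0.20). Its partner *Rpl11* did not reach the limit, with 45 pairs in Input and 42 in H3K27me3-RADIP (-0.13). *Rps20* (31 and 17, -0.90) and *Rps7* (69 and 48, -0.56) had intervals that ended just below 0.

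The other lower members with at least 20 pairs over both libraries had intervals that held 0. Of the small subunit these included *Rps3a1* (20 and 11 pairs) and *Rps25* (18 and 10). Of the large subunit they were *Rpl26* (57 and 39), *Rpl27a* (41 and 27), *Rpl7l1* (25 and 15), *Rpl30* (21 and 13), *Rpl35a* (21 and 15), *Rpl13* (18 and 13), *Rpl34* (18 and 9), *Rpl39* (16 and 9), *Rpl9* (15 and 8), *Rpl36* (13 and 8) and *Rpl19* (12 and 8), with log2 ratios from -1.03 to -0.50 over all 14. *Rpl7l1* is a paralogue with a role in ribosome assembly, and beside *Rpl3l* it was the only listed paralogue gene.

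*Rpl22*, which encodes a protein of the large subunit needed for the development of T cells, was the only member at or above the limit of 0.5 whose interval excluded 0, with 37 pairs in Input and 68 in H3K27me3-RADIP (log2 ratio 0.85, 0.25 to 1.46). *Rps19* stayed under the limit with an interval that also lay above 0 (0.29, 0.03 to 0.55). Its own bin held 128 pairs in Input and 130 in H3K27me3-RADIP. With each tag position counted once, *Rps19* had 205 and 237 pairs, for which no interval was computed. The others at or above the limit included *Rps14*, a gene lost in the human 5q deletion syndrome (43 and 65 pairs, 0.56, -0.01 to 1.15), the X-linked *Rps4x* (10 and 18, 0.82, -0.38 to 2.09) and *Rpl8* (8 and 15, 0.87, -0.45 to 2.32). In *Rpl22* the additional pairs lay in bins that were not listed in Input, as given below: its own bin held 37 pairs in Input and 36 in H3K27me3-RADIP.

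Other genes of protein synthesis were counted in the same way. Of 16 shared mitochondrial ribosomal protein genes 2 were higher and 2 lower, of 53 shared genes of translation factors 3 were higher and 14 lower, and of 81 shared genes of ribosome assembly 6 were higher and 21 lower. Their median log2 ratios were 0.09, -0.14 and -0.19. Of 2 listed ribosomal protein genes with other symbols 0 were higher and 1 lower, *Rack1*, a scaffold protein on the small subunit, with 72 pairs against 46 with the antibody (log2 ratio -0.68), and *Fau*, which encodes a fusion of a ubiquitin-like protein and a small subunit protein, was not listed.

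The gene region of the RNA tag, as labelled by the authors, was distributed alike in both libraries, within the counting error. Intron tags made up 43.3% (41.2 to 45.5) of the members' tags in Input and 42.0% (39.7 to 44.3) in H3K27me3-RADIP. UTR tags made up 25.2% (23.3 to 27.2) and 26.2% (24.2 to 28.3), of which tags of the 3′UTR were 18.0% and 18.6% of all the members' tags and tags of the 5′UTR 7.15% and 7.60%. Tags in coding sequence (CDS) made up 5.83% (4.88 to 6.95) and 5.25% (4.31 to 6.39), and tags labelled only as exon 25.6% and 26.6%. Between the libraries the intron share differed by -1.36 percentage points (-4.51 to 1.81), the UTR share by 1.03 (-1.77 to 3.83) and the CDS share by -0.57 (-2.04 to 0.90), and all 3 intervals held 0.

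Most genes of this family are short, and short genes have fewer intron bases, so the shares were also set against other protein-coding genes no longer than the longest listed member. That limit is the 31449 bp of *Rps14*, where the median listed member had 3760 bp, so the comparison genes were not matched for length. Whether differences from them, here and below, go with gene length was not tested. The comparison genes had 69.4% intron tags in both libraries, 13.1% UTR tags in both, and 10.3% CDS tags in Input and 10.7% in H3K27me3-RADIP. By these labels the members had fewer intron and CDS tags and more UTR tags in both libraries, with intervals that lay outside these values. The labels count tags called exon apart from introns, and the intron shares placed by coding transcripts, given below, lay closer together. Among all other protein-coding genes, of any length, introns held 89.0% of the tags in Input and 89.7% in H3K27me3-RADIP.

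**Figure D2:**
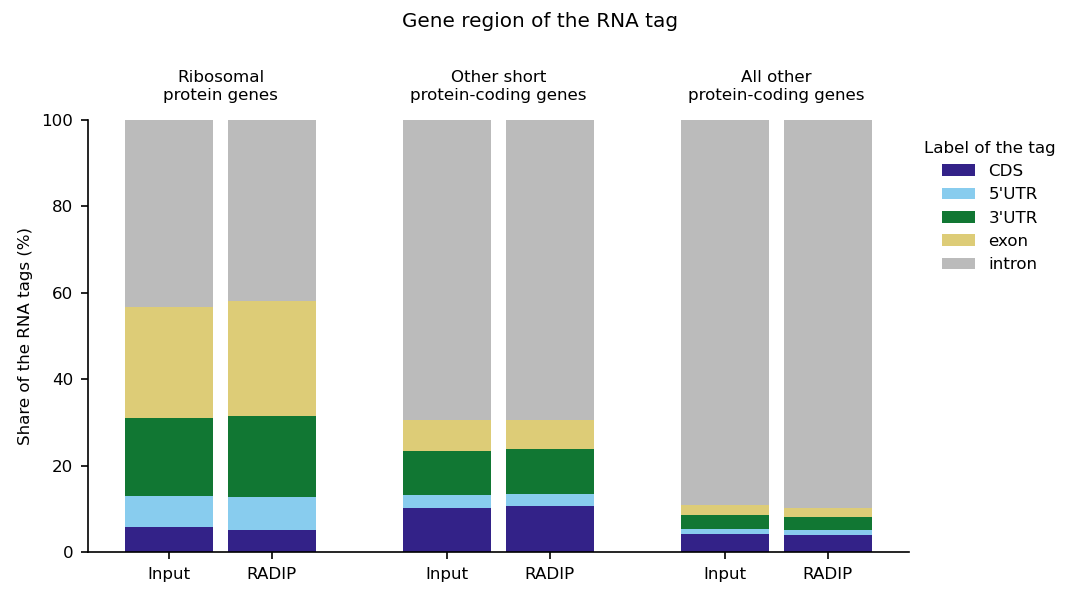
Share of RNA tags (%) by the authors' label of the gene region, for ribosomal protein genes, other protein-coding genes no longer than the longest listed member, and all other protein-coding genes, in Input and H3K27me3-RADIP (RADIP). Exon and UTR labels fill more of the bars of the ribosomal protein genes (exon 25.6% and 26.6%, UTR 25.2% and 26.2%), and the 2 libraries look alike within each group.

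Members differed widely in where their tags lay. *Rpl38* was mostly intronic, with 47 intron tags among 58 Input tags and 52 among 61 H3K27me3-RADIP tags, and so was *Rps7*, with 46 of 69 and 37 of 48. *Rps20* lay mostly in its 3′UTR, with 23 tags of 31 and 12 of 17, and *Rps15a* combined 126 and 102 intron tags with 80 and 71 tags of the 3′UTR. *Rpl12* had 16 CDS tags in Input and 6 in H3K27me3-RADIP, and *Rps19* had 14 and 17. *Rps24* and *Rpl35a* had no intron label in either library, with 35 and 32 tags labelled exon in *Rps24* and 19 and 14 in *Rpl35a*. Along the gene, the tags were spread over the whole length, with 159 to 237 Input tags in each of 10 equal parts of the gene.

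The label exon needs a remark, because exon tags could be taken for spliced RNA. All 506 Input tags and all 475 H3K27me3-RADIP tags of the members labelled exon lay in introns of the annotated coding transcripts. In this placement, exons of a gene's other transcripts count as intron, so it does not show whether the RNA was spliced. Whether these tags lay in such exons was not tested. *Rps19* held 100 of the tags labelled exon in Input and 139 in H3K27me3-RADIP, *Rps24* 35 and 32, and *Rps3* 26 and 32. Placed by the coding transcripts alone, 70.8% of the members' tags in Input and 70.6% in H3K27me3-RADIP were intronic, 24.8% and 25.3% lay in UTRs and 4.36% and 4.08% in CDS. Placed in the same way, the other protein-coding genes no longer than the longest listed member had 77.0% and 76.6% in introns, 12.8% in UTRs in both libraries, and 10.2% and 10.6% in CDS, all outside the intervals of the members (introns 68.8 to 72.8 in Input and 68.4 to 72.7 in H3K27me3-RADIP). Of their tags labelled exon, all 7895 in Input and 7539 in H3K27me3-RADIP that could be placed lay in introns too, and 537 and 517 tags of any label, from genes without such a transcript, were not placed. Tags that crossed an exon–intron edge with at least 4 bases on each side made up 3.70% of the pairs in Input (73 pairs of 36 genes; 2.95 to 4.63) and 3.69% in H3K27me3-RADIP (66 pairs of 34 genes; 2.91 to 4.67), and the letters gt followed the exon at 79 of 81 tag positions of the kind printed first above, while ag preceded the exon at 27 of 34 of the second kind and other letters at 7. These tags bear on a few percent of the pairs, and the state of the RNA behind the rest was not tested.

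The single-copy part of each region was measured because only unique tags were kept. Of all 27-base windows of the 84 members, 32.5% in CDS, 87.9% in UTRs and 92.7% in introns occurred once in the genome. For mitochondrial ribosomal protein genes these shares were 88.7%, 90.5% and 90.2%. In CDS the members ranged from 7.68% in *Rpl15* to 100% in *Rpl3l*, with 11.2% in *Rpl29* and 88.5% in *Rpl8* between them. The introns of *Rpl7a*, *Rpl21* and *Rps4x* were single-copy throughout, where 22.9%, 19.0% and 19.4% of their CDS windows were.

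**Figure D3:**
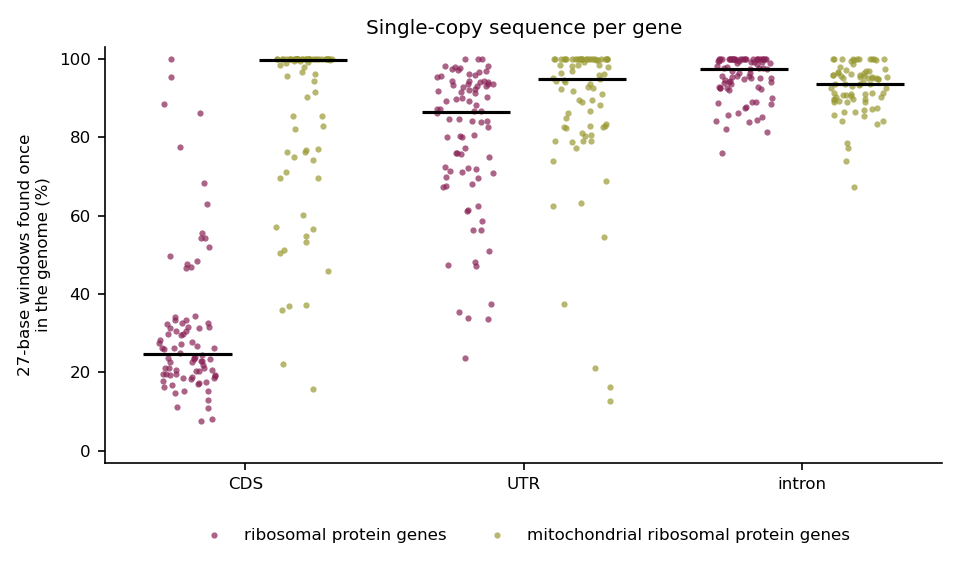
Share (%) of 27-base windows found once in the genome, 1 point per gene, for CDS, UTR and introns of ribosomal protein genes and of mitochondrial ribosomal protein genes, with a line at the median gene. The median is 24.7% for CDS of the ribosomal protein genes and 99.8% for CDS of the mitochondrial ribosomal protein genes.

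Most of the members' tags lay on single-copy sequence (96.9% in Input and 97.7% in H3K27me3-RADIP), which the filter for unique mapping favours. The share was lower in CDS, with 62 of 86 tags (72.1%) and 59 of 73 (80.8%). Per kb of single-copy sequence, counting only tags on it, the listed members had 5.12 pairs in CDS, 9.85 in UTRs and 6.28 in introns in Input, and 4.87, 9.21 and 5.69 in H3K27me3-RADIP. Per kb of all sequence, counting all tags, the CDS value was 2.34 in Input and 1.99 in H3K27me3-RADIP, against 5.91 and 5.34 in introns. The part of uniqueness in the low CDS share was not tested beyond these values. Of the 66 listed members, 28 hold 62 annotated small nucleolar, small nuclear or micro RNA genes on their own strand, and 2 tags in Input and 3 in H3K27me3-RADIP lay inside one.

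All pairs of the members were in *cis*, and none in *trans* was listed in either library. The distance between the tags of a pair was short: the median of the Input pairs was 2.49 kb and that of the H3K27me3-RADIP pairs 3.86 kb, against 5.72 and 7.44 kb in the other protein-coding genes no longer than the longest listed member and 44.6 and 69.0 kb in all others. Pairs under 1 kb were 27.7% of the members' Input pairs and 19.5% of their H3K27me3-RADIP pairs, differing by -8.22 percentage points (-10.9 to -5.51). Pairs of 10 to 100 kb were 16.6% and 24.5%, a difference of 7.91 (5.33 to 10.5). The median distance of a member was longer in H3K27me3-RADIP for 34 of 44 members with at least 10 pairs in both libraries (77.3%, against 69.5% of all such protein-coding genes), and the median ratio of the distances was 1.34 for the members and 1.34 for all such genes.

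Among the members with many pairs, *Rps14* went from a median distance of 4.74 kb in Input to 19.6 kb in H3K27me3-RADIP, *Rps19* from 7.18 to 14.5 kb and *Rpl22* from 4.23 to 9.44 kb. *Rpl12* stayed at 1.47 and 1.44 kb and *Rpl31* at 4.11 and 4.13 kb. *Rpl23*, lower in H3K27me3-RADIP, went from 2.77 to 1.97 kb, so single members did not all move one way.

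The DNA tag lay within the gene itself less often in H3K27me3-RADIP. In Input 46.2% of the members' DNA tags (44.0 to 48.4) were inside the gene and in H3K27me3-RADIP 33.4% (31.3 to 35.6), a difference of -12.7 percentage points (-15.8 to -9.63). DNA tags past the end of the gene made up 43.2% (41.0 to 45.4) and 54.9% (52.6 to 57.2), a difference of 11.7 (8.52 to 14.9), and DNA tags before its start 10.6% and 11.7%, a difference of 1.04 (-0.97 to 3.07), which became 3.46 (1.39 to 5.59) without *Rps15a* and *Rps19*. In the other protein-coding genes up to that length, the share inside the gene went from 58.4% to 50.9% and the downstream share from 29.8% to 34.8%, in the same direction as in the members and by smaller amounts. Their upstream share went from 11.8% to 14.3%, by 2.49 percentage points (2.21 to 2.77), where the members' interval held this value. Of the 55 shared members, 39 had a lower share inside the gene in H3K27me3-RADIP (70.9%, against 59.8% of 2774 shared genes up to that length), 13 a higher one and 3 the same.

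More DNA tags lay downstream than upstream in 60 of 64 members in Input and 53 of 57 in H3K27me3-RADIP, where 69.2% and 67.7% of the other protein-coding genes up to the same length showed this. The first 5 kb past the gene end alone held 30.3% and 28.8% of all the members' pairs, against 2.99% and 4.08% in the last 5 kb before the start. The next 5 kb downstream held 4.76% in Input and 7.94% in H3K27me3-RADIP. *Rpl3* had 51 DNA tags inside the gene, 3 upstream and 12 downstream in Input and 32, 1 and 31 in H3K27me3-RADIP. *Rpl11* was an exception, with 6 upstream and 2 downstream in Input and 1 of each in H3K27me3-RADIP. Within the bins that the gene touches, which give different space to each side, the Input libraries held 2.95 pairs per kb inside the gene, 0.906 per kb downstream and 0.176 per kb upstream, and the H3K27me3-RADIP libraries 2.10, 0.964 and 0.200.

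**Figure D4:**
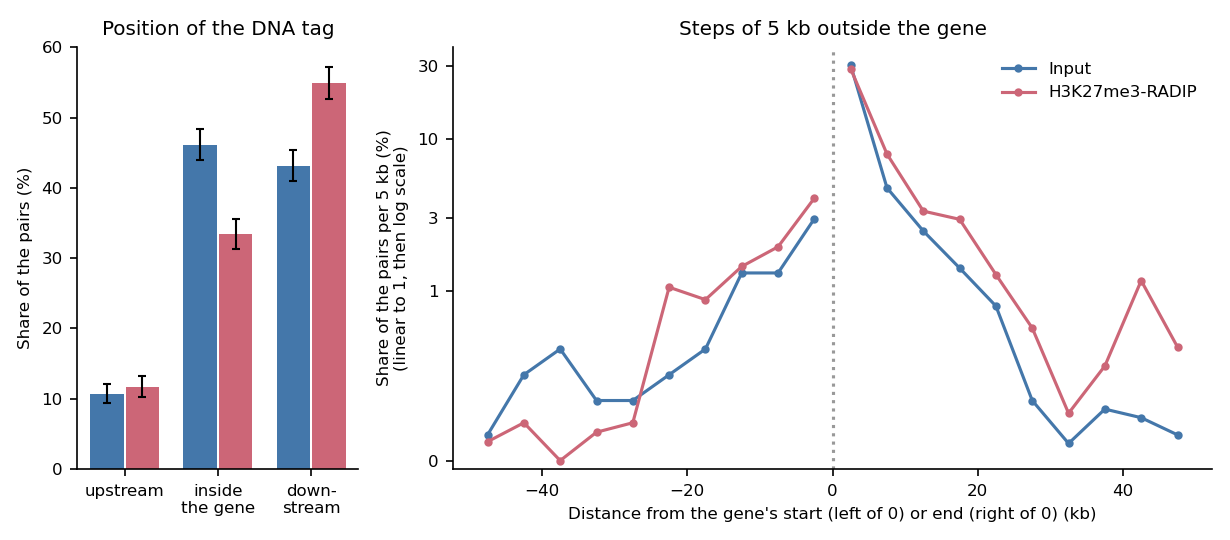
Left, share (%) of the members' pairs with the DNA tag upstream of, inside or downstream of the gene, with 95% Wilson intervals that cover counting error. Right, share per 5-kb step up to 50 kb from the gene start (negative) or end (positive), linear to 1% and then on a log scale, where the downstream steps stand above the upstream ones close to the gene in both libraries (blue Input, red H3K27me3-RADIP).

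By bin, most members met only the bin or bins that hold the gene. The members had 89 combinations with a bin in Input and 94 in H3K27me3-RADIP, and 51 of 64 and 40 of 57 members had a single bin. Pairs whose bin the gene touches were 86.5% of the Input total and 75.6% of the H3K27me3-RADIP total, differing by -10.9 percentage points (-13.4 to -8.40), or by -5.14 (-7.44 to -2.87) over combinations listed in both libraries. Among other protein-coding genes the shares were 63.9% and 55.5%, and among those no longer than the longest listed member 81.3% and 74.2%. A bin outside the gene's own was listed for 15.6% of the members in Input and 24.6% in H3K27me3-RADIP, where 36.7% and 39.4% of the other protein-coding genes of any length had one, and 19.5% and 20.9% of those no longer than the longest listed member.

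Bins outside the gene's own numbered 41 over 15 members, 12 of them listed in both libraries, 9 in Input only and 20 in H3K27me3-RADIP only, so that 70.7% were listed in 1 library, against 67.5% of such bins of the other genes up to the same length. The 58 combinations with an own bin that were listed in both held 1577 pairs in Input and 1319 in H3K27me3-RADIP, and the 12 shared outside bins 178 and 238. *Rps15a* had 11 of the 41 and *Rps19* 10. The *Rps19* bins 10.2 and 35.2 kb past the gene, which hold *Arhgef1*, had 21 and 18 pairs in Input and 33 and 30 in H3K27me3-RADIP, and the bin of *Rabac1*, 60.2 kb away, had 12 and 25. On the upstream side its bins 34.4 and 59.4 kb away were listed only in Input, with 13 and 9 pairs. *Rpl22* had 3 outside bins, all listed only in H3K27me3-RADIP: the bin of *Icmt* and *Rnf207* just before its start with 14 pairs, and 2 bins downstream that hold *Kcnab2*, 1 of them with *Chd5* as well, with 10 and 8 pairs.

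**Figure D5:**
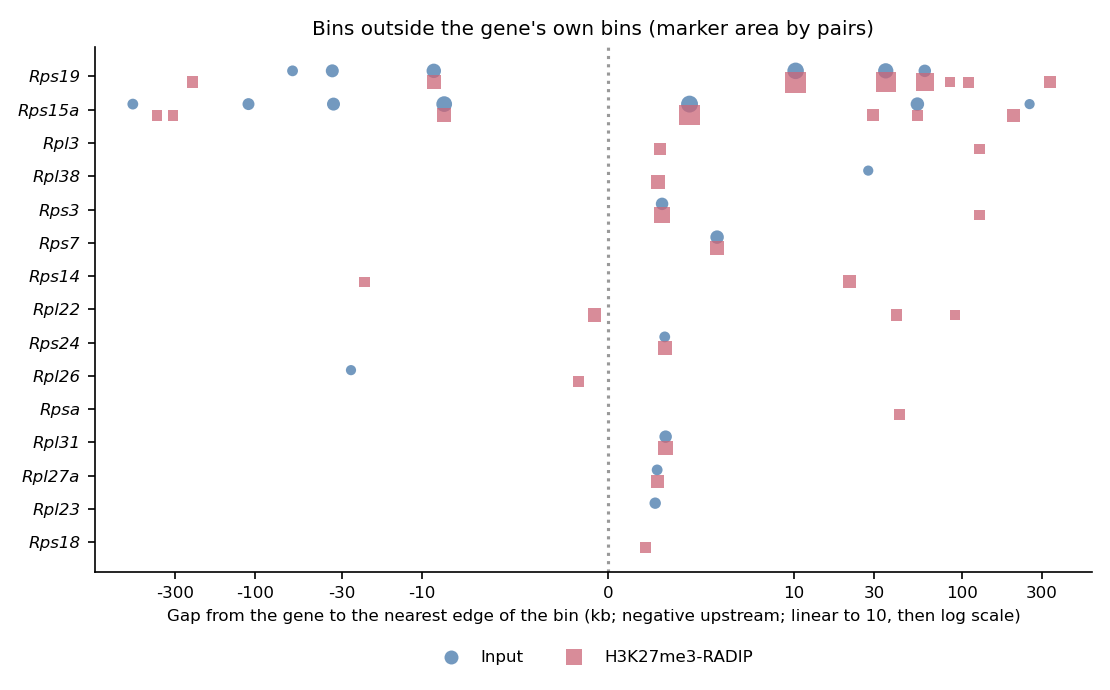
Bins outside the gene's own bins for the 15 members that had any, by the gap (kb) from the gene to the nearest edge of the bin, negative upstream, linear to 10 kb and then on a log scale. The area of a marker follows its pairs (circles Input, squares H3K27me3-RADIP), and 27 of the 41 bins lie downstream.

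Long-range pairs, over 100 kb, came from few genes. There were 28 in Input (1.42%, 0.984 to 2.04), all of *Rps15a*, and 83 in H3K27me3-RADIP (4.64%, 3.76 to 5.72), a difference of 3.22 percentage points (2.14 to 4.38) that became 1.40 (0.66 to 2.24) with a q-value limit of 0.01, and none in either library reached 1000 kb. The other protein-coding genes no longer than the longest listed member went from 5.18% to 8.86%, by 3.68 points (3.47 to 3.89), a value that the members' interval held. In H3K27me3-RADIP *Rps19* gave 32, *Rps15a* 28, *Rpl3* and *Rps3* 8 each and *Rpl22* 7. The bins more than 100 kb from the gene were 3 in Input and 8 in H3K27me3-RADIP, with none in common, and 79.0% of the 995 such bins of the other genes up to the same length were also listed in 1 library only. Those of *Rps15a* lay at *Smg1*, at *Tmc5* and in a stretch without a protein-coding gene in Input, and at *Syt17*, at *Coq7* and in another such stretch in H3K27me3-RADIP, at gaps of 109 to 534 kb. Those of *Rps19* included bins at *Erf*, *Gsk3a* and *Zfp526* (335 kb, 11 pairs) and at *Lypd3* and *Phldb3* (234 kb, 10 pairs). *Rpl3* met the bin of *Cbx7*, which encodes a protein of Polycomb repressive complex 1, at 128 kb with 8 pairs, and *Rps3* the bin of *Map6* and *Serpinh1*, also at 128 kb with 8 pairs.

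These counts were close to the smallest that the tables list for a member, 7 in Input and 8 in H3K27me3-RADIP, so a bin seen in 1 library may have missed the limit narrowly in the other. Without *Rps19* the difference in pairs over 100 kb was 1.77 (0.71 to 2.91), and without *Rps19* and *Rps15a*, a choice added once the data had been seen, 1.75 (1.11 to 2.60). Pairs that repeated both tag positions of another pair were 6.39% of the members' pairs in Input and 11.1% in H3K27me3-RADIP, against 6.76% and 9.70% in other protein-coding genes, and with each position counted once the difference in pairs over 100 kb was 3.05 (1.94 to 4.25).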

How the data were processed

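The deposited tables list significant RNA–DNA pairs, 1 pair per line, with the positions of both tags, the RNA's gene, biotype and region, and the p-value and q-value that the authors computed for each combination of an RNA and a 25-kb bin with a modified CHiCANE model. The authors mapped tags to mm10 with BWA 0.7.15-r1140, kept unique pairs and removed pairs with a q-value above 0.1. No counts are given, so lines were counted (8 labelled libraries merged into 1 table per condition, 1305107 and 1415135 pairs). The unadjusted p-value was not used.

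Groups were the 2 merged tables, as labelled. Members and gene lists were chosen with earlier results of these data known. Tag positions were 1-based and distances taken between tag centres. Gene models were GENCODE M21, an older release than the authors' M25. TMM trimmed log ratios by 30% and mean levels by 5%, and log2 ratios have exact binomial intervals, shares Wilson and differences Newcombe intervals (95%). No test between replicates was possible. Copies of each 27-base window were counted over both strands of the GRCm38 primary sequences. Calculations were tested on simulated data and used Python 3.11.15, numpy 2.4.6, pandas 2.3.3, scipy 1.17.1, numba 0.67.0 and matplotlib 3.10.9. The genes named were the 10 members with the most pairs, those listed in 1 library, shared members past the limit of 0.5 with at least 20 pairs over both libraries, members with long-range bins and paralogues, and other names were chosen after their values were seen. Some genes that meet this rule are not reported here.

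Alternatives were a q-value limit of 0.01, each tag position once, leaving out the leading member, paralogues or tags in small RNA genes, combinations listed in both libraries, library totals, a minimum of 20 pairs, protein-coding pairs as denominator and distance from the gene edge. Leaving out *Rps15a* and *Rps19*, the comparison with protein-coding genes no longer than the longest listed member and the shares by side of the gene were added after the data were seen.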

Additional observations from a re-analysis of the deposited data

How the results depend on the processing

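No paired analysis was possible because each condition is deposited as 1 merged table, and for the same reason no replicate could be left out. Of 116 values recomputed under the alternatives, 108 stayed within the interval or within 1.5 times the count given above, and 0 changed direction among the differences whose interval excluded 0. With a q-value limit of 0.01, the members listed only in H3K27me3-RADIP were 4, the higher shared members 3, and the difference in *cis* pairs over 100 kb 1.40 percentage points. That last difference was 1.77 without *Rps19*, 1.75 without *Rps15a* and *Rps19*, and 0 over combinations listed in both libraries, by construction because no bin that far away was listed in both. Over those combinations the difference in own-bin pairs was -5.14. Without *Rps15a* and *Rps19* the upstream share differed by 3.46 percentage points. The cause of these moves was not tested, beyond the smaller set of pairs that each alternative keeps. Single members had few pairs, with a median of 19 Input pairs and 17 H3K27me3-RADIP pairs.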
